A study of Mus musculus with 6 samples.

Results

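Barcode bc14-76-bc30-49517 is a lentiviral lineage barcode carried by PB3 cells, a mouse mammary tumour cell line, and its cells were followed here through repeated rounds of eribulin and of paclitaxel. Its members are the cells to which the authors' latest barcode call gives this barcode, with hyphens in the name ignored. They number 3437 of the 51785 cells and nuclei in the deposited table and of the 27342 with 1 called barcode, and 2 of them were found through a spelling without hyphens. By run, 438 lay in run 1, 2545 in run 2 and 454 in run 3. The lineage was chosen by its share of the barcoded cells, which was high in round 3 under both drugs. Its shares are therefore a description with no test.

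The study compared untreated PB3 cells with cells after rounds of drug, in 6 libraries and 3 runs. Whole cells of run 1 were untreated (UNT cells) or had been through 4 eribulin rounds (ERI4 cells). Whole cells of run 2 came from 6 conditions in 2 libraries, in which hashtag oligos marked the condition. The eribulin library held cells after 1, 2 or 3 rounds (ERI1, ERI2, ERI3), and the paclitaxel library cells after as many rounds (PAC1, PAC2, PAC3). Nuclei of run 3 were again untreated (UNT nuclei) or taken after 4 eribulin rounds (ERI4 nuclei), through a kit that reads RNA and open chromatin together. An eribulin round was 500 nM over 72 h, followed by 48 h without drug. Paclitaxel was given at 100 nM in the first round and at 250 nM in later ones, again over 72 h. The recovery of 48 h is stated only between its first and its next round. For the final recovery the labels give no length for PAC1 and PAC3 and name none for PAC2. Run 2 holds no untreated library. Drug, dose, recovery and library therefore cannot be told apart when eribulin stands beside paclitaxel, nor can run and treatment when run 2 stands beside UNT cells. PB3 is grown in culture, and gene markers of its cell type were not analysed here.

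In lineage tracing, a lentivirus inserts a short synthetic sequence into the genome of each infected cell. All daughters inherit the insert and transcribe it, so cells that share a barcode descend from 1 infected cell, or from several that took up the same barcode. Eribulin binds microtubule ends and blocks their growth, paclitaxel stabilises microtubules, and both stop dividing cells in mitosis. The share of a barcode among captured cells depends on survival, division and capture alike.

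The barcode has 48 bases: a 14-base part (bc14), a 4-base linker and a 30-base part (bc30). The first line below shows the lineage's own barcode, with bc14 and bc30 in capitals. The other 3 belong to the barcodes that stood next to it by share in round 3 of either drug, with capitals at each base that differs from the lineage's.
bc14-76-bc30-49517: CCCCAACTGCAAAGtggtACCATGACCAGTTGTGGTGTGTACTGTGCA
bc14-6-bc30-93034: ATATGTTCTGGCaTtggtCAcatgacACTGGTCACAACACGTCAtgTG
bc14-55-bc30-23349: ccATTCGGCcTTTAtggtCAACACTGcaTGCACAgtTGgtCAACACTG
bc14-4-bc30-67693: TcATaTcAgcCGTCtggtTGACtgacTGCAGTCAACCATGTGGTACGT

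Each of those 3 differed from the lineage's barcode at 35 of 48 bases. The linker was the same in all 697 barcodes called in the table. No other called barcode shared the lineage's bc30, and 5 shared its bc14, in 29 cells in all and 8 cells of run 2. The closest called barcode still differed at 20 bases, and the median difference over the called barcodes was 34. The lineage was thus at least 20 single-base changes away from any other barcode called in these cells. The bc30 is built from 15 pairs of adjacent bases, of 4 kinds, and is 50.0% G and C, and the bc14 has 8 G or C bases of 14.

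The share of the lineage among barcoded cells was lowest in the untreated conditions. It was 6 of 5087 UNT cells, or 0.118% (95% exact Clopper-Pearson interval 0.0433 to 0.256), and 2 of 4935 UNT nuclei, or 0.0405% (0.00491 to 0.146). The lowest count of barcode RNA molecules above 0 was 10 in UNT cells but 1 in the run 2 conditions. With at least 10 such molecules per cell, the share was 1.45% in ERI1 and 2.32% in PAC1, still above that of UNT cells. The values below have no such minimum. Under eribulin it was 57 of 1356 barcoded cells in ERI1, 242 of 882 in ERI2 and 839 of 2215 in ERI3, which is 4.20% (3.20 to 5.41), 27.4% (24.5 to 30.5) and 37.9% (35.9 to 39.9). Under paclitaxel it was 164 of 1792 in PAC1, 125 of 569 in PAC2 and 1118 of 2286 in PAC3, which is 9.15% (7.86 to 10.6), 22.0% (18.6 to 25.6) and 48.9% (46.8 to 51.0). The share was higher in each later round under both drugs. All of these intervals cover counting error only, since no condition has a replicate library and cells are not replicates.

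By rank, the lineage went from the fifth place among 132 barcodes in ERI1 to the first in ERI2 and ERI3, and from the second among 141 in PAC1 to the first in PAC2 and PAC3. Of 40 barcodes with at least 10 cells over ERI1 and ERI3, 7 had a share at least 2 times higher in ERI3, which is 17.5%. The same held from PAC1 to PAC3 for 5 of 59 barcodes, which is 8.47%. The lineage was among both, with a share 9.01 times higher in ERI3 than in ERI1 and 5.34 times higher in PAC3 than in PAC1. Among the 21 barcodes with enough cells under both drugs, it was the 1 that met the mark under both. Since the lineage was selected on these shares, that count describes the choice and supports nothing.

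Both barcodes next to it by share of ERI3 took another course under paclitaxel. bc14-6-bc30-93034 went from 7.67% in ERI1 through 1.47% in ERI2 to 25.0% in ERI3, but from 14.5% in PAC1 to 7.22% in PAC3. bc14-55-bc30-23349 went from 0.369% in ERI1 to 13.8% in ERI3 and had 0 of 2286 cells in PAC3, where 3 cells would make 0.131%. bc14-4-bc30-67693 went from 2.90% in PAC1 to 21.3% in PAC3. Its absence from the eribulin conditions of run 2 cannot be read, for the reason given next. That reason does not hold for ERI4 cells and ERI4 nuclei, where it had 0 of 6725 and 0 of 1495 barcoded. There 3 would make 0.0446% and 0.201%.

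The barcode calls of the 2 run 2 libraries do not cover the same barcodes. The feature list deposited for run 2 names 185 lentiviral barcodes beside 6 hashtags. Every call in ERI1, ERI2 and ERI3 was on that list, but only 70.4% of calls in PAC1, 59.2% in PAC2 and 63.7% in PAC3 were, and bc14-4-bc30-67693 is off it. With calls limited to the list, the paclitaxel values of the lineage were 13.01% in PAC1 (11.2 to 15.0), 37.1% in PAC2 (31.9 to 42.5) and 76.8% in PAC3 (74.5 to 78.9), with the eribulin values unchanged. Its paclitaxel shares are then above those of the same eribulin round in all 3 rounds, whereas over all calls PAC2 lay below ERI2. On the list, 1 of 39 barcodes, the lineage, had a share at least 2 times higher in PAC3 than in PAC1, which is 2.56%. Over all cells, called or not, the lineage made up 3.06%, 19.3% and 27.3% of ERI1 to ERI3 and 5.60%, 14.7% and 40.0% of PAC1 to PAC3. That denominator does not depend on how many other barcodes could be called.

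The lineage's calls in run 2 rested on few barcode UMIs, which are counted molecules of barcode RNA. In cells with 1 detected barcode, the lineage's median was 4 UMIs in ERI1, 5 in ERI2, 2 in ERI3, 3 in PAC1, 4 in PAC2 and 3 in PAC3. Cells of other barcodes had medians of 11, 11, 10, 5, 7 and 6 in the same order. Lineage cells thus held fewer barcode UMIs than other barcoded cells in all 6 conditions. In ERI3, 28.2% of them had a single barcode UMI, against 11.0% of the other cells.

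A higher minimum of barcode UMIs lowered the lineage's share. Here all cells with 1 called barcode were used, and the minimum applied to all barcode UMIs of a cell together. Other barcoded cells more often held several detected barcodes: in ERI3, 85.9% of them held exactly 1, against 97.3% of lineage cells. With at least 5 barcode UMIs, the share was 2.25%, 20.3% and 18.4% in ERI1, ERI2 and ERI3, and 5.47%, 17.2% and 33.9% in PAC1, PAC2 and PAC3. With at least 10 it was 1.45% (0.754 to 2.53), 12.95% (10.1 to 16.3) and 5.48% (3.98 to 7.33) under eribulin, and 2.32% (1.24 to 3.94), 11.6% (7.83 to 16.3) and 18.9% (15.2 to 23.0) under paclitaxel. Round 3 was above round 1 under both drugs at both minimums. The paclitaxel order by round was also kept, with overlapping intervals of PAC2 and PAC3 at 10 UMIs. The eribulin order was not, since ERI3 was below ERI2 at both minimums, within overlapping intervals at 5 UMIs and with separate ones at 10.

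In round 3, calls with 1 barcode UMI lay in the same cluster as the better covered ones. Of lineage cells in ERI3 with 1 detected barcode, cluster 2 held 212 of the 230 with 1 barcode UMI (92.2%) and 201 of the 216 with 5 or more (93.1%). In PAC3 it held 184 of 195 (94.4%) and 343 of 364 (94.2%). This was not so in PAC2, where cluster 2 held 10 of 17 lineage cells with 1 barcode UMI (58.8%) and 10 of 51 with 5 or more (19.6%), and cluster 7 held 35.3% and 70.6%.

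Cluster 9 of the paclitaxel cells, filled by other barcodes, gives a background for such calls. There, 2 of 50 called PAC1 cells with 1 barcode and 1 barcode UMI carried the lineage (4.00%, 0.488 to 13.7), and 0 of 53 in PAC3, where 3 cells would make 5.66%. In cluster 2 it was 21 of 30 in PAC1 (70.0%, 50.6 to 85.3) and 184 of 193 in PAC3 (95.3%, 91.3 to 97.8). In cluster 7 of ERI1, the lineage made up 14.04% (6.26 to 25.8) of calls with 1 barcode UMI and 2.07% (1.16 to 3.39) of those with 5 or more. The lineage's share of calls thus depended on barcode UMIs within that cluster.

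Across the clusters, which the authors made on all libraries together, lineage cells lay mostly in cluster 7 after 1 and 2 eribulin rounds and in cluster 2 after 3, and after 1 paclitaxel round they were split over clusters 2, 6 and 7. Whether barcode counts entered the clustering is not given in the sources used here. Cluster 7 held 51 of 57 lineage cells in ERI1, 216 of 242 in ERI2 and 11 of 839 in ERI3. It held 15 of 164 in PAC1, 73 of 125 in PAC2 and 11 of 1118 in PAC3. Cluster 2 held 6, 15 and 780 of them in ERI1, ERI2 and ERI3, and 92, 43 and 1034 in PAC1, PAC2 and PAC3. Cluster 7 was thus the main cluster in ERI1, ERI2 and PAC2, and cluster 2 in ERI3, PAC1 and PAC3. The other barcoded cells gave 92.1% in cluster 7 in ERI1, 91.1% in ERI2 and 32.2% in PAC2, values near the lineage's in ERI1 and ERI2 but not in PAC2. In that cluster the lineage made up 4.09% (3.06 to 5.34) of the barcoded cells of ERI1 and 27.0% (24.0 to 30.3) of those of ERI2.

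In cluster 2 the lineage was the leading barcode in every treated cell condition. It made up all 6 barcoded cells of cluster 2 in ERI1, 15 of 16 in ERI2, 92 of 157 in PAC1, 43 of 52 in PAC2 and 414 of 484 in ERI4 cells. Its share there was 75.4% (72.7 to 78.0) in ERI3 and 93.2% (91.6 to 94.6) in PAC3. Among barcodes with at least 10 cells, it was the 1 with any cell in cluster 2 of 30 in ERI1 and of 14 in ERI2. Elsewhere another such barcode had up to 53.8% of its cells in cluster 2 in PAC1 and 7.14% in PAC2. The highest value of another barcode was 73.8% in ERI3 and 47.8% in ERI4 cells. In PAC3 it was 100%, and the lineage, at 92.5%, took place 2 of 14. In PAC1, 56.1% (48.1 to 63.8) of its cells were in cluster 2, against 3.99% of the other barcoded cells. With at least 10 barcode UMIs, the lineage's value in PAC1 was 30.8% of 13 cells, and its median pseudotime 17.1 in place of 20.4. In PAC2 the values were 34.4% (26.1 to 43.4) and 2.03%. After 1 eribulin round, 10.5% (3.96 to 21.5) of its cells were there, so more of the lineage lay in cluster 2 after 1 round of paclitaxel than of eribulin, at different doses.

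Cluster 6 held 37 of the 164 lineage cells of PAC1, 5 of 125 in PAC2 and 47 of 1118 in PAC3. Under eribulin it held 0 of 57 in ERI1, where 3 cells would make 5.26%, and 4 of 242 and 33 of 839 in ERI2 and ERI3. The share of lineage cells in cluster 6 was thus lower in round 3 than in round 1 of paclitaxel. Under eribulin no change can be read, since the ERI3 share of 3.93% (2.72 to 5.48) lay within the ERI1 interval (0 to 6.27). The other barcoded cells had 37.7% in cluster 6 in PAC1 and 5.22% in PAC3. Cluster 9, which held 26.5% of the other barcoded cells of PAC1 and 73.6% of those of PAC3, held 6 of 164 lineage cells in PAC1, 1 of 125 in PAC2 and 6 of 1118 in PAC3. Together, clusters 2, 6 and 7 held 87.8% of the lineage in PAC1 and between 96.8% and 100% of it in the other treated cell conditions.

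After 4 eribulin rounds in run 1, the lineage made up 432 of 6725 barcoded cells, or 6.42% (5.85 to 7.04), and took the fourth place by share. Of those, 414 (95.8%, 93.5 to 97.5) lay in cluster 2, against 1.11% of the other barcoded cells. This cluster was poorly covered by barcode calls: 1437 of its 1967 cells (73.1%) had no detected barcode and 24.6% had a called one, against 84.8% in the other clusters of ERI4 cells. In ERI3, 61.0% of cluster 2 cells had a called barcode against 85.5% elsewhere, and in PAC3 86.0% against 78.4%. Median pseudotime was 25.7 both in the cluster 2 cells of ERI4 with no detected barcode and in the lineage's, and median depth was 22641 and 26769 UMIs. The smallest barcode count above 0 was 8 UMIs in ERI4 cells and 10 in UNT cells, but 1 in all run 2 conditions. The drop from 37.9% in ERI3 to 6.42% in ERI4 cells thus sets together libraries that differ in run, in round and in the lowest barcode count kept, and the part of each cannot be told apart.

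The number of barcodes per lineage cell also differed between the runs. Of ERI4 cells of the lineage, 44 of 432 (10.2%) had exactly 1 detected barcode, against 50.5% of the other barcoded cells. In run 2 the lineage's value lay between 86.0% in ERI1 and 97.3% in ERI3, above that of the other barcoded cells in all 6 conditions. All 6 UNT cells called for the lineage had 2 to 5 detected barcodes. Their barcode counts were 10 to 21 UMIs, and 4 lay in cluster 1, 1 in cluster 6 and 1 in cluster 0. Of the 638 UNT cells with 1 called and 1 detected barcode, 0 carried the lineage, which allows a share of up to 0.470% by counting error.

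Pseudotime is a distance along the path fitted by the authors, with untreated cells at its start and no unit. The lineage's median was 9.27 in UNT cells. It was 15.0 in ERI1 (quartiles 14.7 and 17.4), 14.9 in ERI2 (14.7 and 16.6), 22.6 in ERI3 (22.5 and 23.4) and 25.7 in ERI4 cells (24.8 and 26.1). It was 20.4 in PAC1 (18.3 and 21.7), 16.6 in PAC2 (14.7 and 20.4) and 21.0 in PAC3 (20.4 and 21.9). Under eribulin the median was near level from round 1 to 2 and higher in round 3, while under paclitaxel it was lowest in round 2.

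Beside the other barcoded cells of the same condition, lineage cells lay later in pseudotime in ERI1, ERI2, ERI3 and PAC1 and earlier in PAC2, PAC3 and ERI4 cells. The others' medians were 13.6, 13.6, 16.6 and 17.7 in the former and 22.0, 21.9 and 29.0 in the latter. Over all pairs of 1 lineage and 1 other cell, with ties split evenly, the lineage cell was later in 86.8% of pairs in ERI1, 83.8% in ERI2, 69.1% in ERI3 and 66.3% in PAC1. The share was 35.3% in PAC2, 38.9% in PAC3 and 27.4% in ERI4 cells. Among the 30 barcodes of ERI1 with at least 10 cells, the lineage had the highest median pseudotime, with the next at 14.6. From the latest, it took place 2 of 14 in ERI2, 3 of 12 in ERI3 and 3 of 11 in ERI4 cells. Under paclitaxel it took place 13 of 47 in PAC1, 10 of 14 in PAC2 and 12 of 14 in PAC3.

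Part of these differences followed the clusters. Within cluster 7, the lineage's median was 15.0 against 13.5 in ERI1, 14.9 against 13.6 in ERI2, 14.7 against 13.7 in both PAC1 and PAC2, 16.6 against 14.5 in ERI3 and 16.6 against 13.8 in PAC3. The lineage was thus later than other barcodes of cluster 7 in all 6 run 2 conditions, with 11 lineage cells each in ERI3 and PAC3 and 15 in PAC1. Within cluster 2 the medians were close: 22.7 against 22.6 in ERI3, 20.9 against 20.6 in PAC1 and 21.1 against 20.9 in PAC3. In PAC3 the lineage cell was later in 55.8% of pairs within cluster 2, against 38.9% over all clusters. In ERI4 cells the cluster 2 medians were 25.7 against 25.0. The lower overall medians of the lineage in PAC3 and ERI4 cells were thus not seen within cluster 2.

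In the authors' UMAP, a map that places cells with like expression near each other, lineage cells of the 2 drugs lay near each other. For each cell, the 30 nearest barcoded cells of the other drug after the same number of rounds were taken. Around lineage cells of ERI1, ERI2 and ERI3, 40.8%, 49.8% and 85.9% of these neighbours in PAC1, PAC2 and PAC3 carried the lineage. Around other cells of ERI1, ERI2 and ERI3 the values were 18.6%, 34.5% and 40.3%, and the lineage's shares of the PAC conditions are 9.15%, 22.0% and 48.9%. The neighbours of lineage cells thus carried the lineage more often than its share in all 3 rounds. Those of other cells of ERI1 and ERI2 did so too. In ERI3, 93.0% of lineage cells lay in cluster 2, where the lineage made up 93.2% of barcoded PAC3 cells. The 85.9% was thus not above the lineage's share of that cluster. Closeness beyond a shared cluster was not tested here for ERI1 and ERI3.

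Starting from the paclitaxel cells gave the same order. Around lineage cells of PAC1, PAC2 and PAC3, 28.2%, 41.4% and 58.6% of neighbours under eribulin carried the lineage, against 5.86%, 14.6% and 12.3% around other cells. The 58.6% around PAC3 lineage cells was below the lineage's share of barcoded cells in cluster 2 of ERI3, 75.4%. Within cluster 7 alone, from PAC2 to ERI2, the values were 35.6% and 24.0%, at a lineage share of 27.0%. From ERI2 to PAC2 they were 47.9% and 36.5%, at a share of 33.8%. The median points of the lineage in ERI3 and PAC3 were 0.144 UMAP units apart, with a median distance of lineage cells to their own point of 0.856 and 0.611. For the other barcoded cells, the ERI3 and PAC3 median points were 2.60 apart. In round 2 the distances were 0.214 for the lineage and 4.91 for the others, and in round 1 they were 1.78 and 3.02. The other paclitaxel cells include barcodes off the run 2 list, and no such barcode was called in ERI1, ERI2 or ERI3. The values for other cells thus set partly different barcodes side by side, here and in the neighbour shares. After 2 and 3 rounds the lineage's points for the 2 drugs were closer than its own spread, and after 1 round they were not.

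Within a condition and cluster, the extent to which lineage cells lay next to each other varied. In cluster 7 of ERI1, 23.1% of the 30 nearest barcoded cells around lineage cells carried the lineage and 3.05% around other cells. In cluster 7 of ERI2 the values were 47.5% and 19.8%, and in cluster 7 of PAC2 42.1% and 31.4%. In cluster 2 of ERI3 they were 77.6% and 71.7%, and in cluster 2 of PAC3 94.0% and 93.7%. Lineage cells were thus enriched around each other within cluster 7 of ERI1 and ERI2, above their shares of 4.09% and 27.0% there. Most of their neighbours in that cluster still carried other barcodes. In cluster 2 of PAC3 the lineage was mixed with the few others. Lineage cells of ERI4, sequenced in another run, had their median point 4.36 units from that of ERI3, and 84.5% of their nearest barcoded neighbours within ERI4 cells carried the lineage, against 1.42% around other cells. Within cluster 2 of ERI4 cells the values were 91.7% and 83.1%, so most of that contrast went with the cluster.

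Each cell of runs 1 and 2 was called S or G2M, whichever deposited phase score was higher, and G1 if neither exceeded 0. The share of lineage cells called S was 26.3% (15.5 to 39.7) in ERI1, 21.5% (16.5 to 27.2) in ERI2 and 16.9% (14.4 to 19.6) in ERI3. It was 28.7% (21.9 to 36.2) in PAC1, 25.6% (18.2 to 34.2) in PAC2 and 19.9% (17.6 to 22.3) in PAC3. Under both drugs the value was lowest in round 3, and the intervals of rounds 1 and 3 overlapped under both. The other barcoded cells went from 25.3% to 19.0% called S between ERI1 and ERI3, and from 23.4% to 16.4% between PAC1 and PAC3.

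The share of lineage cells called G2M was 43.9%, 47.5% and 45.9% in ERI1, ERI2 and ERI3 and 38.4%, 46.4% and 44.6% in PAC1, PAC2 and PAC3. Of the other barcoded cells, 38.0% (35.4 to 40.6) were called G2M in ERI3, below the lineage's 45.9% (42.5 to 49.3), but within cluster 2 of ERI3 the values were 40.9% (34.8 to 47.3) and 45.9% (42.4 to 49.5), with overlapping intervals. In PAC3, 44.5% of the other barcoded cells were called G2M, close to the lineage's value. In ERI4 cells, 32.4% (28.0 to 37.0) of lineage cells were called S, against 19.1% (18.2 to 20.1) of the other barcoded cells. The lineage was also deeper there, with a median of 26813 UMIs against 20607. Within a common range of UMI counts, 37.3% of lineage cells of ERI4 were called S. Within cluster 2 of ERI4 cells, the S shares were 32.6% (28.1 to 37.4) for the lineage and 24.3% (14.8 to 36.0) for the 70 other cells, with overlapping intervals. The part of depth in this difference was not tested.

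The mitochondrial share of UMIs, which rises in many stressed or leaking cells, was higher in the lineage than in the other barcoded cells in all 6 run 2 conditions. Its median was 3.69% against 3.00% in ERI1, 4.14% against 3.47% in ERI2 and 3.05% against 2.89% in ERI3. It was 3.20% against 2.82% in PAC1, 3.37% against 2.74% in PAC2 and 2.83% against 2.35% in PAC3. In ERI1 it was the highest of 30 barcodes, though the next reached 3.68% as well. From the highest, the lineage took place 3 of 14 in ERI2 and 4 of 12 in ERI3. It took place 8 of 47 in PAC1, 2 of 14 in PAC2 and 3 of 14 in PAC3. In ERI4 cells the lineage was lower, with 4.50% against 4.72%, and took place 7 of 11 barcodes.

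By cluster, the difference varied. In cluster 7 the lineage's median was 3.93% against 3.01% in ERI1, 4.23% against 3.56% in ERI2, 4.40% against 3.20% in PAC1 and 4.24% against 3.09% in PAC2. It was 4.76% against 3.37% in ERI3 and 3.95% against 3.92% in PAC3, with 11 lineage cells each. In cluster 2 it was 3.04% against 2.88% in ERI3, 3.01% against 2.63% in PAC1, 2.72% against 3.51% in PAC2, where only 9 other cells were in the cluster, and 2.83% against 2.88% in PAC3. The PAC3 difference over all clusters was thus not seen at that size within either cluster, while in ERI3 and PAC1 the difference within cluster 2 was close to that over all clusters. Median depth of the lineage was 18736, 18899 and 11840 UMIs in ERI1, ERI2 and ERI3, and 12687, 17884 and 13320 UMIs in PAC1, PAC2 and PAC3. A lineage cell was deeper than another barcoded cell in between 50.9% and 54.7% of pairs in these 6 conditions.

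In nuclei, the lineage rests on calls that changed between the authors' versions. The latest call gives 452 of 1495 barcoded ERI4 nuclei, or 30.2% (27.9 to 32.6). The first revision of the call gives 362 of 4245, or 8.53%, and only 56 nuclei carry the lineage in both. Of the 452, the first revision named no barcode in 211 and bc14-55-bc30-23349 in 157. Among whole ERI4 cells of the lineage, 387 of 432 had the same call in both versions.

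By the latest call, ERI4 nuclei of the lineage lay in cluster 10 (163), cluster 4 (158) and cluster 2 (84), and by the first revision in cluster 4 (175), cluster 10 (113) and cluster 2 (32). Other barcoded nuclei had 3.16% (2.19 to 4.41) in cluster 2, against the lineage's 18.6% (15.1 to 22.5) and 8.84% (6.13 to 12.3) by the 2 versions. Their median pseudotime was 24.4, against 24.0 and 23.0. Of the nearest barcoded nuclei, 32.3% around lineage nuclei and 29.2% around others carried the lineage, so the nuclei of the lineage were mixed with the rest in the UMAP, unlike the ERI4 cells. The 2 UNT nuclei called for it lay in cluster 0.

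Depth and library overlap bear on these values as follows. Median depth was between 11267 and 20877 UMIs per cell in the cell conditions and 2089 and 3428 in the nuclei. In all, 490 cells have a 10x cell barcode that also occurs in another library, 22 of them lineage cells, and no such pair was called for the lineage in both libraries. Without these cells the lineage's share was 38.0% in ERI3 and 49.1% in PAC3.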

How the data were processed

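RNA was measured in single PB3 cells (runs 1 and 2) and nuclei (run 3), with no replicate libraries. Per the design text of the series and the submitters' processing notes, the authors aligned reads to mm10 and counted them with Cell Ranger 3.1.0 (run 1), 4.0.0 (run 2) or Cell Ranger ARC 1.0.0 (run 3), filtered and clustered cells with Seurat 3.1.4 and computed pseudotime with Monocle3 0.2.1. The stated filter dropped cells under 200 genes or over 50% mitochondrial or ribosomal UMIs, and 1 lineage cell lay outside it and was kept. The deposited counts are RNA UMIs, genes, barcode UMIs and detected barcodes per cell, not normalized. The deposited percent is the mitochondrial share of UMIs. The deposited score columns are S and G2M phase scores and pseudotime, on arbitrary scales, and UMAP coordinates and cluster numbers were also taken as deposited by the authors.

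Here each cell got its condition from its library's label and, in run 2, from the deposited condition name. Shares, medians, 30 nearest UMAP neighbours and exact 95% intervals were computed with Python 3.11.15, pandas 2.3.3, numpy 2.4.6 and scipy 1.17.1, and the functions were tested on simulated data. Median intervals came from order statistics. With no replicate libraries no test was made. A nucleus holds 1 barcode feature more than its detected barcodes, so 1 was subtracted there. No doublet caller was run, and only the authors' barcode calls took out doublets. Sequences came from the deposited feature lists. Barcodes named are the lineage, the next 2 by share of ERI3 and of PAC3 and any other with a share 2 times higher in round 3 under both drugs. The members and lists were chosen with earlier results of these data known. Alternatives were the call version, the denominator, cells with 1 detected barcode, a common UMI range, G1 cells, a phase limit of 0.1 and 10 neighbours. The run 2 list, at least 10 barcode UMIs and leaving out shared cell barcodes were added after seeing the data.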

Additional observations from a re-analysis of the deposited data

Results flagged for a closer look

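In 2 measures, the lineage's values moved in opposite directions from round 1 to round 3 under the 2 drugs. Its median depth changed by -6896 UMIs per cell from ERI1 to ERI3 and by 633 UMIs from PAC1 to PAC3. The share of its cells in cluster 6 changed by 3.93 percentage points from ERI1 to ERI3 and by -18.4 percentage points from PAC1 to PAC3. The ERI3 share of 3.93% lay within the ERI1 interval of 0 to 6.27%, so that eribulin change cannot be read. Neither pattern was particular to the lineage. The other barcoded cells had median depths of 17274 and 11202.5 UMIs in ERI1 and ERI3, and 11528 and 12600.5 in PAC1 and PAC3. Their cluster 6 shares were 0.924% and 5.38% in ERI1 and ERI3, and 37.7% and 5.22% in PAC1 and PAC3. ERI1 and ERI3 come from 1 library and PAC1 and PAC3 from another, with no replicates, so neither difference between the drugs was tested.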

How the results depend on the processing

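No paired analysis was possible because no condition has a replicate library, so no replicate numbers pair the conditions. Of 215 values under alternatives, 146 moved by less than the counting interval, and 69 moved by more. The order of conditions changed in places: ERI3 was below ERI2 with at least 10 barcode UMIs, and PAC2 was above ERI2 with calls on the run 2 list. With the first revision of the call, the share was 30.9% in ERI2, 11.1% in PAC1, 52.8% in PAC3 and 8.53% in ERI4 nuclei, the main cluster held 98.2% in ERI4 cells and 31.2% in ERI4 nuclei, and median pseudotime in ERI4 nuclei was 23.0. Over all cells, the share was 4.63% in ERI4 cells, 3.06%, 19.3% and 27.3% in ERI1 to ERI3, 5.60%, 14.7% and 40.0% in PAC1 to PAC3 and 5.19% in ERI4 nuclei. With 1 detected barcode, the share was 0% in UNT cells, 1.36% in ERI4 cells, 33.1% in ERI2, 40.8% in ERI3, 10.9% in PAC1 and 53.7% in PAC3, median pseudotime was 25.3 in ERI4 cells and 22.9 in ERI4 nuclei, whose main cluster held 20.8%, and the neighbour shares were 93.9% from ERI3 to PAC3 and 63.9% from PAC3 to ERI3. With calls on the run 2 list, the share was 13.01%, 37.1% and 76.8% in PAC1 to PAC3 and the neighbour share from ERI3 to PAC3 was 89.8%. With at least 10 barcode UMIs, the share was 5.69% in ERI4 cells, 1.45%, 12.95% and 5.48% in ERI1 to ERI3 and 2.32%, 11.6% and 18.9% in PAC1 to PAC3. Under that minimum, the main cluster held 90.5% in ERI3, 30.8% in PAC1, 75.0% in PAC2 and 81.8% in PAC3, and median pseudotime was 17.6 in ERI1, 22.5 in ERI3, 17.1 in PAC1, 14.7 in PAC2 and 20.9 in PAC3. Barcodes with a share at least 2 times higher in ERI3 then numbered 4, of fewer barcodes. How many were tested is not given here, so the 4 cannot be set beside the 7 of 40 without that minimum. Within a common UMI range, the share in ERI3 was 41.5%, the main cluster of PAC2 held 48.3%, S calls were 37.3% in ERI4 cells, 29.5% in ERI2 and 20.1% in ERI3, and G2M calls were 33.9% in ERI4 cells, 33.9% in ERI2 and 36.2% in PAC2. In cells called G1, median pseudotime was 24.9 in ERI4 cells, 15.9 in ERI2 and 22.5 in ERI3. With a phase limit of 0.1, S calls were 19.9% in ERI4 cells, 8.77%, 12.8% and 7.75% in ERI1 to ERI3 and 11.0%, 11.2% and 7.96% in PAC1 to PAC3, and G2M calls were 40.1% in ERI2, 36.5% in ERI3, 26.2% in PAC1 and 34.9% in PAC3. The lower S and G2M calls with a phase limit of 0.1 and the shares under other denominators follow from the settings themselves. For the other values the cause was not tested. The few barcode UMIs per lineage cell in run 2 and the lack of replicate libraries limit every value.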

Other observations

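Many cells share the same pseudotime value. Of ERI4 cells of the lineage, 134 of 432 (31.0%) had the value 26.1, and of ERI2 cells of the lineage, 57 of 242 (23.6%) had 14.7. In the other barcoded cells of PAC2, 213 of 444 (48.0%) had 23.9. Medians of pseudotime therefore step between repeated values.

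Barcode UMIs of lineage cells were few beside other barcodes as well as beside other cells. Among other barcodes with enough cells of 1 detected barcode, 1 of 19 had a lower median than the lineage in ERI1, 2 of 11 in ERI2, 1 of 8 in ERI3, 6 of 29 in PAC1, 2 of 11 in PAC2 and 1 of 9 in PAC3. In ERI4 cells 0 of 5 had a lower one, where the lineage's median was 13 UMIs and those of the others ran from 13 to 28.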
